A study of Mus musculus with 144 samples.

Results

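The 58 cells described here are the single cells that the depositors labelled as quiescent neural stem cells (qNSC), taken from the subventricular zone, the stem cell niche along the lateral ventricles of the adult mouse brain. They were chosen by that stage label alone, without a measured value. The label covers 59 of the 144 libraries, and a near-identical pair of libraries from 1 set of 5-week cells (Pearson r of 0.992 over genes, against 0.742 for the next closest pair of labelled cells) was averaged and counted as 1 cell. The study sorted cells that express the nuclear receptor Tlx (gene Nr2e1) and sequenced 131 of them singly and 13 pools of 500 cells each, to look for differences among stem cells. The other single cells carry the label of active neural stem cells (aNSC, 58 libraries) or were marked as filtered out (14 libraries, not used here). The qNSC came from mice of 5 weeks (16 cells after averaging), 7 weeks (23 cells) and 7 months (19 cells), and the first parts of their titles divide each age into 3 sets, 9 in all, of 4 to 8 cells. Among the labelled quiescent and active cells each age has its own title series, so age and series cannot be told apart there. Of the filtered-out libraries, all labelled as 5-week, 7 carry titles of the series that holds the 7-month cells. The labels name no strain, sex, animal or reporter allele, and do not say how the stage was assigned, so the levels of astroglial genes may themselves have gone into the label.

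Quiescent stem cells of this niche are a kind of astrocyte: they keep glial processes, take up glutamate, are joined by connexin channels and burn lipid and sugar, and they hold their cell cycle and protein synthesis low under Notch and BMP signals until they are activated. The genes that mark them are therefore largely shared with ordinary parenchymal astrocytes, and a list of astroglial genes cannot separate a quiescent stem cell from an astrocyte. Tlx is a transcriptional repressor required for neural stem cells to renew.

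Values are in TPM, transcript levels divided by transcript length and scaled to a fixed total per cell, so that levels of different genes can be set side by side. A gene was counted as detected in a cell at 1 TPM or more. Read depth cannot be read from TPM and is unknown. A median of 2195 genes was detected per quiescent cell, from 1016 to 4161, and the mean of the title sets was 2279 ± 181 at 5 weeks, 1910 ± 150 at 7 weeks and 2913 ± 149 at 7 months (SD over 3 sets). The TPM of the listed genes summed to 710525 in the cell of lowest sum. Cells are not replicates of a condition and no animal is named, so differences among cells are described without a test.

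All 5 markers of the astroglial state were abundant in most quiescent cells and near 0 in a few. Aldoc, the brain form of the glycolytic enzyme aldolase (ENSMUSG00000017390), ranged from 0.125 to 17889 TPM with a median of 4604. Clu, a secreted lipid-binding chaperone (ENSMUSG00000022037), had a median of 4171 TPM (0.325 to 23298), and Apoe, the main lipid carrier of the brain (ENSMUSG00000002985), one of 3296 TPM (0 to 16048). The glutamate transporter Slc1a3 (ENSMUSG00000005360) had a median of 3487 TPM (0.590 to 8603), and Gja1, which encodes connexin 43 (ENSMUSG00000050953), one of 2706 TPM (0.3 to 9872). Slc1a3 was detected in 57 cells, Aldoc, Gja1 and Apoe in 54 each and Clu in 53. In 52 of 58 cells (89.7%, exact binomial 95% interval 78.8 to 96.1%, counting error only) all 5 were detected together, and in 43 cells (74.1%, 61.0 to 84.7%) all 5 stood at 100 TPM or more. At 1 TPM all 23 cells of 7 weeks and all 19 of 7 months had all 5. Every cell that lacked 1 or more of them was a 5-week cell. At the other end, 9 cells had none of the 5 at 100 TPM, although 8 of these 9 had at least 1 of them at 1 TPM or more.

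**Figure D1:**
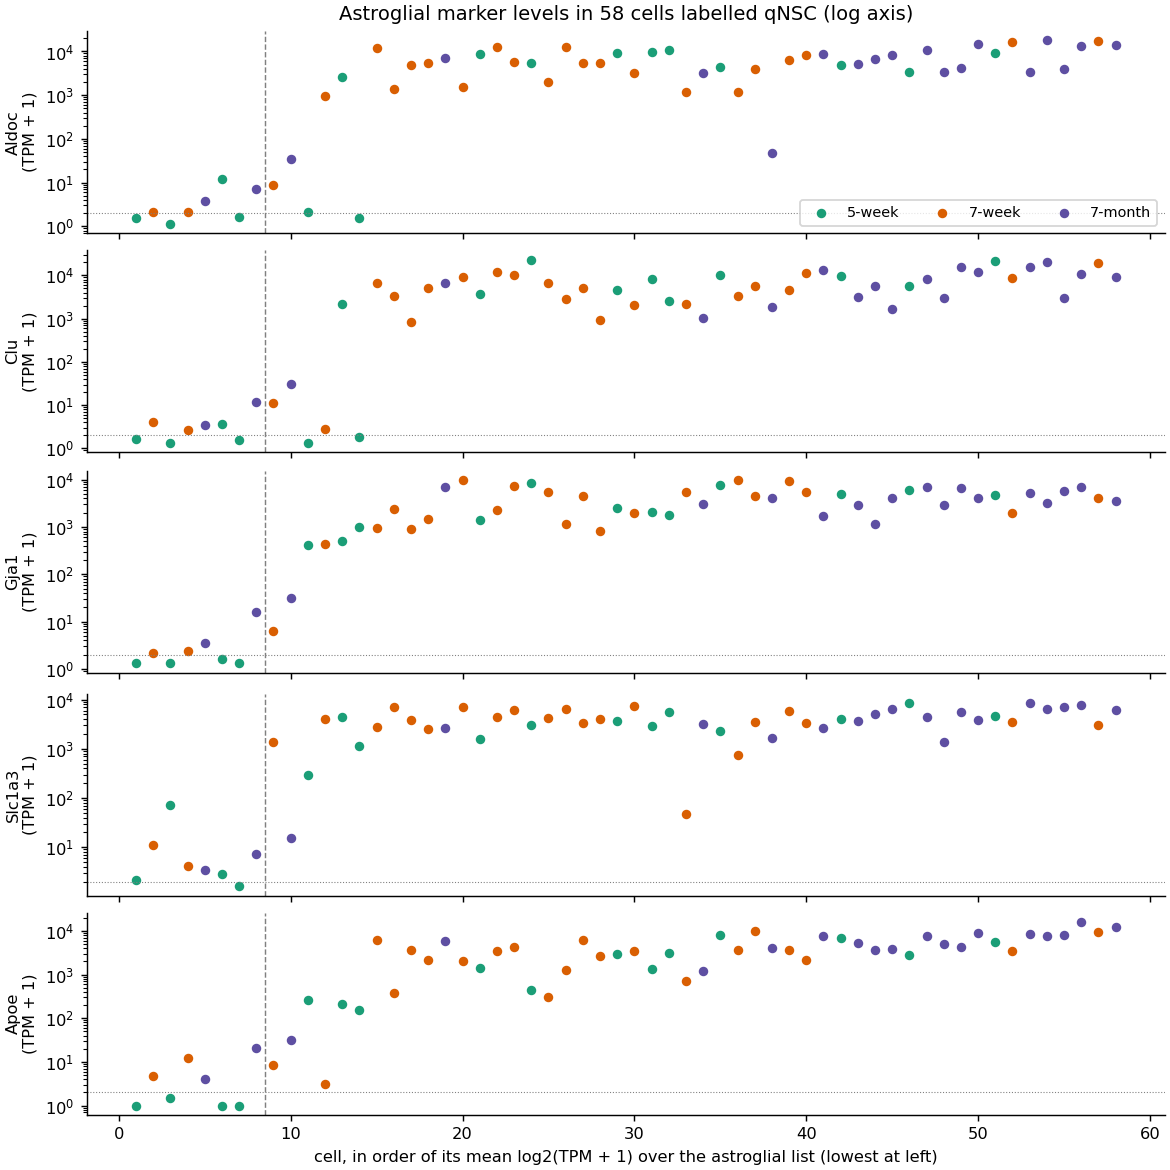
TPM of the 5 markers in each of the 58 quiescent cells, plus 1 and on a log scale, with cells ordered by their astroglial list mean and coloured by age (dashed line, list mean of 3; dotted line, 1 TPM). The 8 cells left of the dashed line are low for all 5 markers, and most of the others lie far above them.

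The same cells were low on a list of 40 astroglial genes as a whole. The mean of log2(TPM + 1) over the 36 listed genes that were detected in at least 25% of quiescent cells ran from 0.71 to 10.13 with a median of 7.48. It was under 3 in 8 cells, of which 4 of 16 came from 5-week, 2 of 23 from 7-week and 2 of 19 from 7-month mice, and 3 from 1 set of 5-week cells, A3_3. The cell just under that limit had a mean of 2.85 and those just above it 3.10 and 3.25, so that the limit does not fall in a wide gap. Aldoc, Clu, Gja1 and Apoe are on the list that split the cells, so their differences across this limit follow from the split. In the 8 low cells the median of Aldoc was 1.14 TPM, against 5368 TPM in the other 50. The medians of Clu were 2.08 and 5455 TPM, those of Gja1 0.895 and 3379 TPM, and those of Apoe 1.81 and 3577 TPM. The same 8 cells had a mean over neuroblast genes, those of migrating young neurons, of 6.01 to 10.09 (median 8.25 on the log2 scale), against 0.099 to 7.19 (median 1.22) in the other 50. Their label as quiescent stem cells goes against both lists. They also had more genes detected (median 2516 against 2120) and a smaller share of Malat1 (median 5.50% against 10.7% of TPM). Most correlations below, and the count of variable astroglial genes, are given over all cells and over the other 50.

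Of the 121 measured entries on lists of other cell types, Cd24a standing on a pair of them, 63 (52.1%) were detected in no quiescent cell, a share below that over all listed genes (63.2%). All 9 measured oligodendrocyte precursor genes, among them Pdgfra, Cspg4 and Sox10, were detected in no quiescent cell, and 0 of 58 cells allows a share of cells at 1 TPM of up to 5.17%. The microglial genes C1qa, Csf1r and Cx3cr1 were also detected in no cell. Among 14 endothelial and mural genes 11 were detected in no cell, Cldn5, Flt1 and Pecam1 included, while Pdgfrb was seen in 9. The ependymal markers Foxj1, Tmem212 and Ccdc153 were below 1 TPM in every cell. The ependymal list as a whole had 8 of 16 genes in no cell and a summed level with a median of 251 TPM and a highest value of 4657 TPM, and Rarres2, in 29 cells, and Cd24a, in 24 and also on the neuroblast list, were its members seen in at least 25% of cells. Among the oligodendrocyte genes Mbp was seen in 12 cells (highest 6.15 TPM) and Mog in 3, with Mag in none. Of the neuroblast genes, Stmn1 was seen in 57 cells, Tubb3 in 35, Stmn2 in 23, Dcx in 18 and Dlx5 in 17. Among the neuronal genes Snap25 was seen in 18 cells and Syt1 and Rbfox3 in 1 each. Of the choroid plexus and erythroid markers, Ttr was detected in 11 cells and Folr1 in none, and Hba-a1 in 9 and Alas2 in none. The summed level of the neuroblast list had a median of 191 TPM and a highest value of 36429 TPM.

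A few transcripts made up a large part of each cell. The 10 most abundant genes of a cell held a median of 23.2% of its listed TPM (11.4 to 55.1%), and the 100 most abundant 52.7%. Malat1, a long RNA that stays in the nucleus, was first by median, at 86065 TPM (22745 to 446074), and took a median of 9.51% of the listed TPM (2.27 to 45.3%). Transcripts of the mitochondrial genome followed, with mt-Atp6, a subunit of ATP synthase, at a median of 17080.5 TPM (2588 to 43232), the cytochrome oxidase subunit mt-Co3 at 13939.7 TPM and mt-Cytb at 9719 TPM. Mitochondrially encoded genes together held a median of 7.16% (1.62 to 23.9%). The most abundant transcript of neither kind was Cst3, a secreted inhibitor of cysteine proteases, at 16802 TPM. Next by median stood Ubb, which encodes ubiquitin, at 8177 TPM and the tetraspanin Tspan7 at 5539 TPM. Below Aldoc and Clu came Actb (cytoplasmic actin, 3767 TPM), the glutathione transferase Gstm1 (3747 TPM), the tetraspanin Cd81 (3596 TPM) and the metallothionein Mt1 (3331 TPM). Members of the glutathione transferase family resemble one another, and the authors' counting could have split reads among them.

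Below these genes detection was sparse. Of 37621 listed genes 23777 were detected in no quiescent cell and 2996 in 1 cell only. In at least 25% of the cells (15 or more) 3002 genes were detected (7.98% of all listed), in at least 50% 1257, and in at least 90% 195 (0.518%). Genes seen in 25 to 50% of cells were at a median of 8.58 TPM where they were detected, and those seen in 90% or more at 61.6 TPM. For the first class a median of 60.7% of a gene's sum of squares (its total spread over cells on the log2 scale) lay between cells with and cells without it, and for the second 11.4%. For the less often detected genes, then, differences among quiescent cells were mostly differences between seen and not seen, and with the depth unknown a transcript that was missed cannot be told from one that was not there.

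There were 57 genes detected in every quiescent cell, 49 of which have a name that is no predicted model. They included Malat1, 8 mitochondrial genes, Cst3, Ubb, Actb, Cd81, the lactate dehydrogenase subunit Ldhb (median 2302 TPM), the heat shock protein Hspa8 (1844 TPM) and the splicing-linked gene Arglu1 (1239 TPM). Being seen in every cell did not mean being high in every cell. Cst3 ran from 3.69 to 73590.3 TPM and Cd81 from 1.34 to 11700.1 TPM, whereas Actb stayed between 647 and 22872 TPM and Arglu1 between 174 and 5887 TPM. A further group was found in every cell at low level: Tepsin, an accessory protein of an adaptor complex in vesicle traffic, at 7.06 to 121 TPM, Eef1akmt3, a lysine methyltransferase, at 3.55 to 80.9 TPM, Lrrn4cl at 3.79 to 47.8 TPM and Zc3h12b at 1.48 to 39.3 TPM. In the bulk pools these 4 genes had medians of 23.6, 6.13, 5.45 and 7.11 TPM.

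Well-known stem cell genes were often not among the detected ones. Tlx itself (Nr2e1) was seen in 28 of 58 cells, at a median of 16.2 TPM where detected, and the green fluorescent protein transcript in 20. Sox9, a transcription factor of glia and stem cells, was seen in 51 cells with a median of 278 TPM. The receptor Notch2 was detected in 50 cells (79.7 TPM) and Id2, a target of BMP signals, in 44 (424 TPM, highest 8911). The RNA-binding protein genes Msi1 and Msi2 were seen in 40 and 36 cells. Against this, Sox2 was seen in 13 cells, the Notch targets Hes1 and Hes5 in 15 and 7, and the intermediate filament gene Nes and the surface marker Prom1 in 1 cell each. Several standard astroglial genes were as rare: Gfap was detected in 3 cells, S100b in 10 and Aldh1l1 in 11. Of 14 listed genes of activation and progenitors 4 were detected in at least 25% of cells, Cdk4 in 54 and Ccnd2 in 40, mostly at low level (medians 11.8 and 6.11 TPM). Egfr and Mki67 were seen in 4 cells each. The early response gene Fos was seen in 22 cells, at 7572 TPM in the highest.

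The spread of each gene over the 58 cells was taken as the SD of log2(TPM + 1). Because it depends on level, the running median of the 100 genes nearest in mean was subtracted, and the remainder is called the excess SD. The 3002 genes detected in at least 25% of cells entered, and the top 10% (301 genes, a share of 10% by construction) is called variable below. The 100 genes of highest level share 1 reference window, so their excess follows their SD.

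The most variable gene was Sat1, the enzyme that breaks down polyamines by acetylating them. It ranged from 0 to 46264 TPM with a median of 1749, was detected in 49 cells, and had an SD of 5.30 and an excess SD of 1.65. Next came Pla2g7, a secreted phospholipase that cleaves platelet-activating factor (41 cells, median 1072 TPM, highest 9778, excess SD 1.45), and Selenop, the plasma carrier of selenium (38 cells, median 1197 TPM, highest 5898, excess SD 1.32). Sparcl1, a matrix protein that astrocytes secrete, was seen in 41 cells with a median of 1156 TPM and a highest of 7585 (excess SD 1.31). Each of the 4 was thus abundant in the middle cell and undetected in some. A further group was seen in 50% of cells or fewer, but at a high level where it was seen. Cmtm5 was detected in 29 cells at a median of 1341 TPM among those, Lxn, a carboxypeptidase inhibitor, in 29 at 1344 TPM, and Dhrs7, a short-chain dehydrogenase, in 20 at 1206 TPM. Gjb6 (connexin 30) was seen in 27 cells at 1218 TPM and Crym, which binds thyroid hormone, in 18 at 1266 TPM. Nkain4 (43 cells, median 741 TPM), Clu and S100a6 completed the first 12. Between seen and not seen lay 77.5% of the spread of Sparcl1, 89.9% of that of Dhrs7 and 93.9% of that of S100a6. Among detecting cells alone the excess SD of Sparcl1 was -0.09, that of Dhrs7 -0.33 and that of S100a6 -0.96, while Sat1 and Pla2g7 were still in the top 10%.

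The genes that varied least for their level were Tepsin (SD 0.83), Eef1akmt3 (0.90), Lrrn4cl (0.83), Zc3h12b (0.82), mt-Atp6 (0.85) and Dnajb14, a co-chaperone (1.36). Malat1 had an SD of 0.96. At similar abundance the contrast is wide, since Cst3, close to mt-Atp6 by median, had an SD of 3.67. Cst3 is on the astroglial list, and in the 8 cells of low astroglial mean it stood at 3.69 to 689 TPM. The part of these cells in its SD was not tested.

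Variable genes were frequent in the astroglial list. Of its 36 measured members 15 were in the top 10%, against 10% of all genes, led by Sparcl1, Clu, Gjb6, Aldoc, the tissue factor gene F3, Gstm1 and Mfge8. Apoe was among them (excess SD 0.46), but Gja1 (0.31) and Slc1a3 (-0.05) were not. This count rested in large part on the cells of low astroglial mean. It was 8 of 37 among the 50 cells with an astroglial mean of at least 3, 5 of 36 without the 16 cells that stood high on the neuroblast, oligodendrocyte or G2/M lists (8 of them the low cells above), and 3 of 36 when the spread was taken over detecting cells only. Without the 5-week cells it was 9 of 36 and without the 7-week cells 20 of 36. Of the 17 metallothionein and antioxidant genes measured, 6 were variable, Selenop, Gstm1 and Mt3 first. The counts were 6 of 16 for lipid handling (with Clu, Apoe and the fatty acid binding protein Fabp7), 4 of 12 for glycolysis (Aldoc, Aldoa, Gapdh, Pfkp) and 2 of 13 for glutamate, ion and water transport (Gjb6 and the water channel Aqp4). In the stem cell, Notch and BMP list it was 2 of 14, Id2 and Id3. Only 1 of 73 ribosomal protein genes, none of the 15 mitochondrially encoded genes and none of the 15 neuroblast genes were in the top 10%. Clu, Apoe, Aldoc, Gstm1, Prdx6, Gjb6 and Aqp4 each stand on more than 1 list.

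Genes that went with the astroglial state were found by Spearman's rho between each gene and the mean of the astroglial list, leaving the gene itself out of the mean. These values compare cells by measurements from the same libraries, in a unit in which 1 gene's share is taken from the others, and they are given as a description. Over all 3002 genes the median rho was 0.084. A rho of 0.5 or more was found for 72 genes (2.4%) and one of -0.5 or less for 29 (0.966%). In the 50 cells with an astroglial mean of at least 3 the numbers were 82 genes (2.73%) and 2 genes (0.0666%), and the median rho was 0.145. Among these 50 cells the astroglial mean had a rho of 0.39 with the number of genes detected, against 0.15 over all 58. Of the 15 neuroblast genes 4 had a rho of 0.5 or more among the 50 cells, and 0 over all cells.

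Highest was Apoe, with a rho of 0.82 (Pearson r 0.92), and 0.72 among the 50 cells. Cst3 followed (0.77 and 0.64), then Tspan7 (0.76 and 0.65). Cd81 (0.74 and 0.67), F3 (0.70 and 0.67), Clu (0.69 and 0.53) and the adhesion molecule Ntm (0.68 and 0.56) were also among the first. Of these, Tspan7, Cd81 and Ntm are not on the astroglial list. These 7 stayed at 0.5 or more without the low cells. The highest rho of a glutamate, ion and water transport gene, 0.76 over all cells, belongs to none of these 7. Among list members 27 of 36 astroglial genes had a rho of 0.5 or more (median 0.55), and 12 of 36 did so among the 50 cells (median 0.38). Of the glutamate, ion and water transport genes 9 of 13 did (5 of 13 among the 50 cells), and 10 of these 13 genes are also on the astroglial list. Cd9, a tetraspanin on the list and seen in every cell, was the member that followed the rest least (0.053).

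Of the ribosomal protein list 2 of 73 genes had a rho of -0.5 or less, and none of them among the 50 cells. Leaving out predicted gene models and pseudogenes, the 8 genes of lowest rho were the following. Cbx3, a heterochromatin protein, had a rho of -0.66 (-0.55 among the 50 cells), Actb one of -0.63 (-0.46) and Tmsb4x, which binds free actin, one of -0.60 (-0.39). Rpl35, a protein of the large ribosomal subunit, stood at -0.59 (-0.39) and Ptma, the acidic nuclear protein prothymosin, at -0.57 (-0.36). Ubb (-0.54 and -0.32), the tubulin Tubb5 (-0.52 and -0.27) and Dpysl2, which binds tubulin in growing axons (-0.52 and -0.31), were the others of the lowest 8. Without the 8 low cells, of these 8 only Cbx3 was still at -0.5 or less. The neuroblast list mean was high in those 8 cells, and its part in these values was not tested.

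Between lists the same pattern appeared at a coarser scale. The mean over 73 ribosomal protein genes and the astroglial mean had a rho of -0.39 and an r of -0.60 over 58 cells, and an r of -0.58 without the 2 cells farthest from the median astroglial mean. Within title sets, by centring each set on its mean, rho was -0.58, and with the number of genes detected removed it was -0.61. Among the 50 cells with an astroglial mean of at least 3 rho was -0.088 and r -0.34, so a large part of the relation came from the low cells. It was -0.75 over the 16 cells of 5 weeks, -0.43 over the 23 of 7 weeks and -0.20 over the 19 of 7 months, and -0.12 when the 5-week cells were left out. The ribosomal mean also went with the number of genes detected (rho 0.58, and 0.57 among the 50 cells), with the activation and progenitor list (0.73 and 0.66) and with G2/M genes (0.65 and 0.77). With the number of genes detected removed, these last rho were 0.62 for activation and progenitor genes and 0.42 for G2/M. S phase genes followed the number of genes detected (0.73 and 0.71).

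Lists of metabolism ran with the astroglial list rather than against it. The metallothionein and antioxidant mean, with the 2 shared genes left out, had a rho of 0.69 with the astroglial mean (r 0.70), 0.59 among the 50 cells and 0.71 within title sets. Over the cells of 5 weeks, 7 weeks and 7 months the metallothionein rho was 0.81, 0.38 and 0.74. Lipid handling, with 4 shared genes left out, had a rho of 0.55, which was 0.32 among the 50 cells and 0.41, 0.33 and 0.74 at the 3 ages. Glycolysis, with 1 shared gene left out, had a rho of 0.54 (0.55 among the 50 cells). For glycolysis it was 0.30 within title sets, and -0.062, 0.38 and 0.53 at the 3 ages. Glutamate, ion and water transport, with its 10 shared genes left out, rests on 3 genes and had a rho of 0.48 (0.34 among the 50 cells). This transport rho was 0.32 within title sets, and 0.36, 0.23 and 0.089 over the cells of 5 weeks, 7 weeks and 7 months. The metallothionein and lipid lists went together at 0.72 (0.59 among the 50 cells), and the glutamate and lipid lists at 0.69 (0.53).

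**Figure D2:**
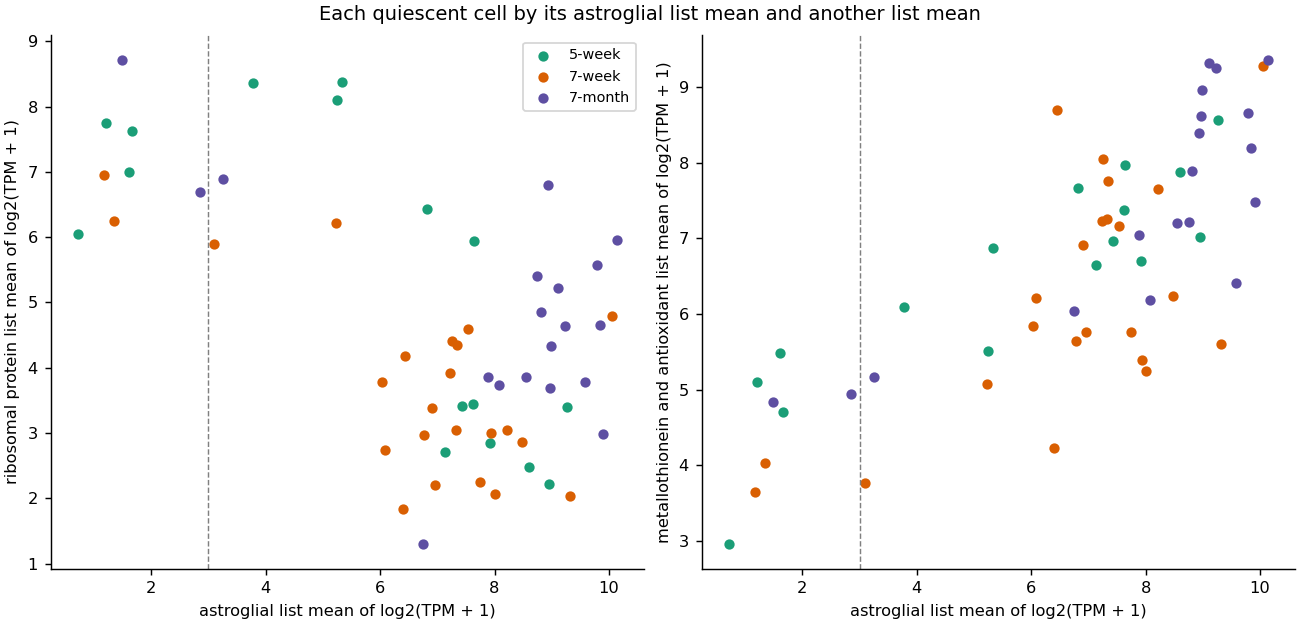
Mean log2(TPM + 1) of the ribosomal protein list (left) and of the metallothionein and antioxidant list (right) against the astroglial list mean in the 58 quiescent cells, with ages marked. The dashed line marks an astroglial mean of 3. The ribosomal mean is highest in cells towards the left, whereas the metallothionein mean, which here includes the 2 genes shared with the astroglial list, is lowest there.

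Gene pairs gave a finer view. Among the 3173940 pairs of the 2520 genes whose names are no predicted models the median rho was 0.096 and 1.17% of pairs had 0.5 or more. The closest pairs were low-level genes: Zc3h12b with Lrrn4cl (0.95), Kdelc2 with Lrrn4cl (0.95), Zc3h12b with Strip2 (0.94) and Zc3h12b with Rbms2 (0.93). Among the 50 cells these pairs had 0.96, 0.94, 0.94 and 0.93. Zc3h12b, Lrrn4cl, Kdelc2, Strip2 and Rbms2 were seen in 47 to 58 cells at medians of 2.21 (Rbms2) to 13.4 TPM (Lrrn4cl). They also ran against the ribosomal list mean, with rho from -0.60 to -0.67. Ndufb4 and Ndufb4c (0.94) are near-identical copies between which reads can be split, so that pair is uncertain.

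To see pairs of abundant genes, the 283 genes with a mean of log2(TPM + 1) of 5 or more were taken separately, a limit chosen after the first pairs were seen. The subunits mt-Atp8 and mt-Atp6, which are made from 1 transcript, came first (0.80). Cst3 with Tspan7 (0.79, and 0.69 among the 50 cells), Clu with Cst3 (0.78 and 0.675) and Apoe with Cst3 (0.75 and 0.62) followed, and then Rps18 with Stmn1, which destabilises microtubules (0.74). The sodium pump subunit Atp1b2 went with Gja1 (0.73, and 0.62 among the 50 cells). The lowest pairs set Gja1 against Ptma (-0.72, and -0.60 among the 50 cells) and against the nucleosome-binding protein Hmgn2 (-0.70 and -0.58), and Sparcl1 against Gnb1, a G protein subunit (-0.69 and -0.61). Centred on title sets, the pairs of Gja1 had -0.71 and -0.67, and that of Sparcl1 with Gnb1 -0.42.

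**Figure D3:**
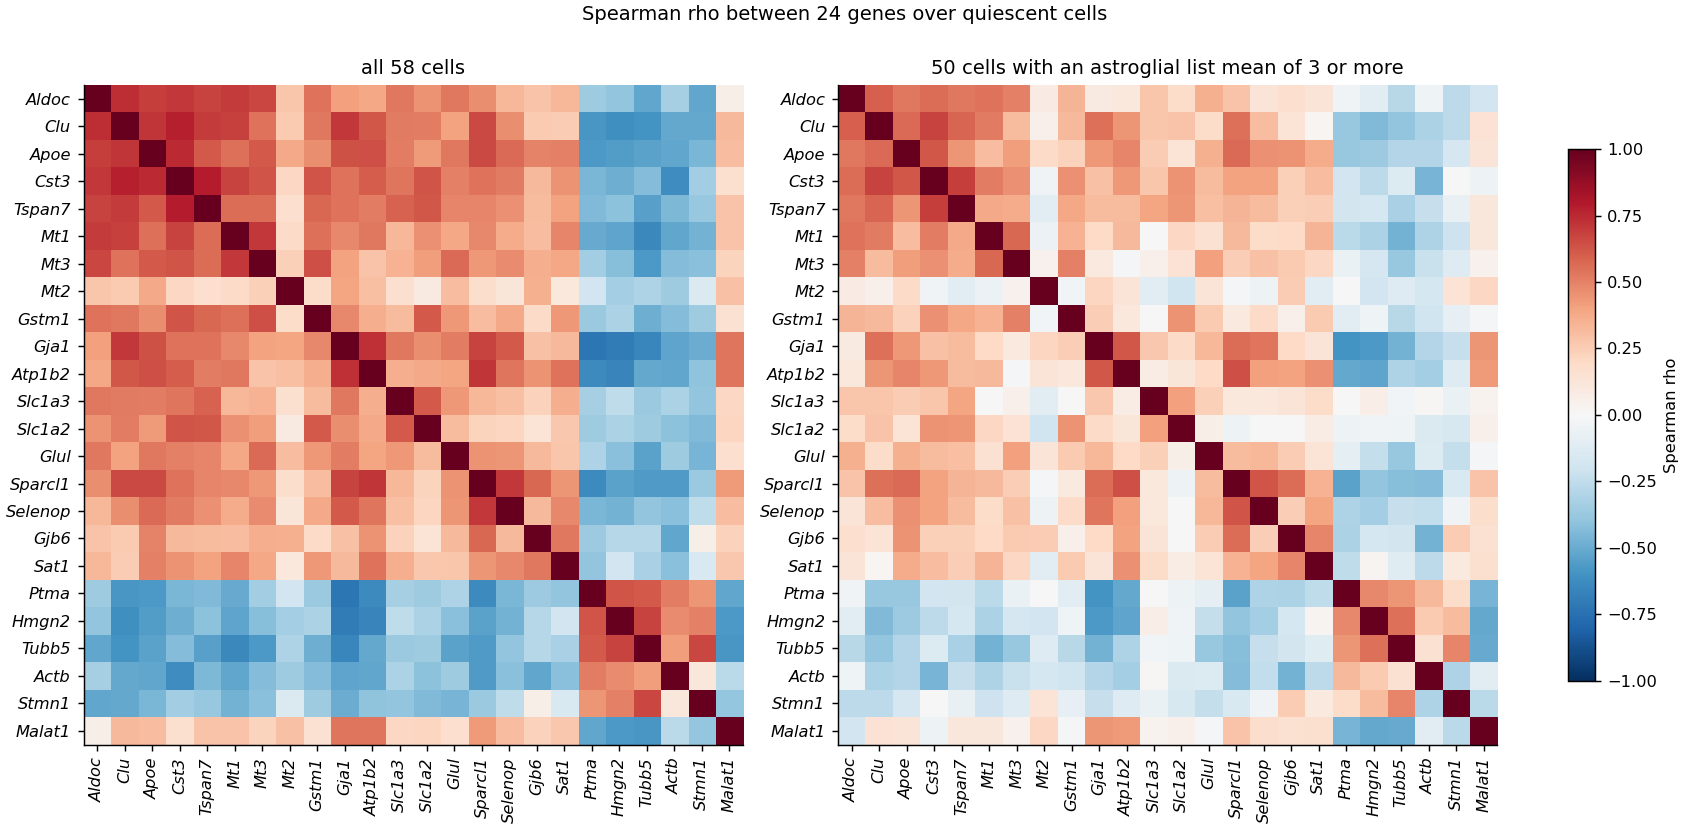
Spearman's rho between pairs of 24 named genes over all 58 quiescent cells (left) and over the 50 with an astroglial list mean of at least 3 (right), from blue (negative) to red (positive). Astroglial genes form a block of positive values in the left panel that is paler in the right, Ptma, Hmgn2, Tubb5, Actb and Stmn1 are mostly negative against it, and Mt2 stands apart from Mt1 and Mt3.

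The markers did not all vary as 1 unit. Over 58 cells the rho of their 10 pairs ran from 0.41 to 0.74, but this includes the 8 cells in which they were low. Among the 50 cells Aldoc kept a rho of 0.59 with Clu and 0.53 with Apoe, and had 0.088 with Gja1. Clu had 0.55 with Gja1 and 0.57 with Apoe, and Apoe had 0.44 with Gja1. Slc1a3 had 0.26 to 0.28 with each of the other markers, so Aldoc with Gja1 was the lowest of the 10 pairs. Gja1 stayed with Atp1b2 (0.62). Sparcl1 went with Selenop (0.71, and 0.63 among the 50 cells) and with Atp1b2 (0.72 and 0.64). Both glial glutamate transporters, Slc1a3 and Slc1a2, had a rho of 0.61, and 0.41 among the 50 cells. When cells were centred on their title set, all 10 marker pairs lay between 0.71 and 0.85 over the 58 cells. Malat1 went with Gja1 (0.53 and 0.44) and against Hmgn2 (-0.58 and -0.51).

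The metallothioneins, small proteins that bind zinc and copper, offer a close pair and a neighbour that went less with either. They were singled out after their values were seen. Mt1 was detected in 55 cells (0 to 8935 TPM, median 3331), Mt3, the brain form, in 50 (0 to 5257 TPM, median 1925) and Mt2 in 40 (0 to 4268 TPM, median 202). Mt1 and Mt3 had a rho of 0.71 (r 0.79), of 0.57 among the 50 cells and of 0.74 within title sets. Mt2 had a rho of 0.19 with Mt1 (r 0.41) and 0.24 with Mt3 (r 0.24), which were -0.057 and 0.046 among the 50 cells and 0.30 and 0.18 within title sets. The difference between these correlations was not tested. All 3 genes lie on chromosome 8, on the plus strand, and their RefSeq promoters (250 bases before to 50 after the annotated start, build GRCm38.p6, which is not the build of the TPM table) are shown to set the co-varying pair beside the neighbour. Capitals mark cores of the metal response element, TGCACNC or TGCGCNC on either strand, at which the zinc-sensing factor Mtf1 is known to bind. The windows are chr8:94178839-94179138 for Mt1, chr8:94172368-94172667 for Mt2 and chr8:94152357-94152656 for Mt3.
Mt1: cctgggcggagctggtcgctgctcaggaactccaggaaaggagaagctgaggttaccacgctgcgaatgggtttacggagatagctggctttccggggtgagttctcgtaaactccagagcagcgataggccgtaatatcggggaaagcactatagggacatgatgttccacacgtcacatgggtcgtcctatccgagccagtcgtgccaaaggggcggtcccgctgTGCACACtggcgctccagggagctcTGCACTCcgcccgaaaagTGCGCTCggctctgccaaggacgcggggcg
Mt2: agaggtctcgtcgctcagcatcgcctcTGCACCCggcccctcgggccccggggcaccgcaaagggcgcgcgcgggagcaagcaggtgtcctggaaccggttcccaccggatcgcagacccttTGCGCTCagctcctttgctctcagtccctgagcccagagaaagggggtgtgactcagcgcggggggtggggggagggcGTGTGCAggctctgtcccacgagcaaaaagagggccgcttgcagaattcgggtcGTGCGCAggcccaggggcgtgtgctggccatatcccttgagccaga
Mt3: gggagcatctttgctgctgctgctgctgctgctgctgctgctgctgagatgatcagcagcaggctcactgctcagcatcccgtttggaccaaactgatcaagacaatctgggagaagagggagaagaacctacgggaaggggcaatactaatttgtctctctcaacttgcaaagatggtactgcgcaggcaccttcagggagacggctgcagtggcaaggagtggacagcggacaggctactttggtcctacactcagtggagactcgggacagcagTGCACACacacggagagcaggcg
The window of Mt1 held 3 cores, that of Mt2 4 and that of Mt3 1. Among 32544 promoters of this length 25.9% held at least 1 core, 1.32% at least 3 and 0.298% at least 4. The GC box GGGCGG on either strand occurred 3 times in the Mt1 window (9.76% of promoters have 3 or more) and not in the others, and TATAAA on either strand occurred in none of the 3 windows (13.6% of promoters hold it). A match of letters is a description of the window, and the annotated start may not be the one used in these cells.

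Principal components of the 500 most variable genes summarised these differences. The first held 12.1% of the variance, with Pla2g7, Sparcl1, Selenop, F3, the protease inhibitor Serpine2 and Clu at 1 end and Tex30, Cd1d1, Ranbp1, Snrpb2, Timm17a and Poldip3 at the other. Its rho with the astroglial mean was 0.93 and with the number of genes detected 0.18. The second held 5.46%. Cyb5a, Cox20, Naca, Praf2, Sub1 and Rps27 led at its low end, with cytochrome, nascent-chain and ribosomal genes among them, and Clu, Aldoc, Gja1, Atp1b2, Mt3 and Sparcl1 at its high end. It followed the ribosomal mean (-0.83), the number of genes detected (-0.80) and the neuroblast mean (-0.68). Both components are built from the genes compared with them, so these values are no separate evidence.

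The median gene had 17.4% of its sum of squares between the 9 sets and 4.71% between the 3 ages. Any split of these cells takes a share, since the sets hold 8 and the ages 2 of the 57 degrees of freedom, so these values are given as a description. Sets of the same age were closer than cells of other ages: the median rho over genes was 0.313 for 165 pairs of cells in 1 set, 0.286 for 379 pairs of the same age in other sets and 0.231 for 1109 pairs of different ages. The astroglial list mean was 5.76 ± 0.48 at 5 weeks, 6.63 ± 0.33 at 7 weeks and 7.96 ± 0.32 at 7 months (SD over 3 sets). Its set means ran from 5.23 to 6.16, 6.32 to 6.98 and 7.61 to 8.24. Its medians over cells were 6.98, 7.23 and 8.94, and 4 of the 8 low cells were 5-week cells. The set means of genes detected also stood apart by age, at 2080 to 2435, 1760 to 2059 and 2801 to 3081. Their part in the list mean was not tested. Among the variable genes, Sat1 had medians of 943, 2.95 and 5207 TPM at the 3 ages, Sparcl1 of 0.245, 709 and 4124 TPM, and Selenop of 0.680, 1.44 and 1867 TPM. Apoe, at 878, 2705 and 5260 TPM, rose over the 3 ages as Sparcl1 and Selenop did, while Sat1 was lowest at 7 weeks.

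A few genes, chosen by the highest share between ages after values were seen, were detected mostly in the 7-month cells. Etnppl, an enzyme that degrades phosphoethanolamine, was detected in 1 of 16, 0 of 23 and 16 of 19 cells at 5 weeks, 7 weeks and 7 months (58.5% of its sum of squares between ages). Pygm, a glycogen phosphorylase, was seen in 0, 2 and 16 cells (56.2%), and Lgi1, a secreted protein of synapses, in 0, 0 and 15 (53.1%). Gjb6 was seen in 4, 4 and 19 cells (51.6%) and the alarmin Il33 in 2, 1 and 16 (46.3%). Centred on title sets, the excess SD of Gjb6 was -0.35, so within sets its spread was below the running median of genes of like level. More genes were detected per cell at 7 months, and the part of this in these differences was not tested.

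**Figure D4:**
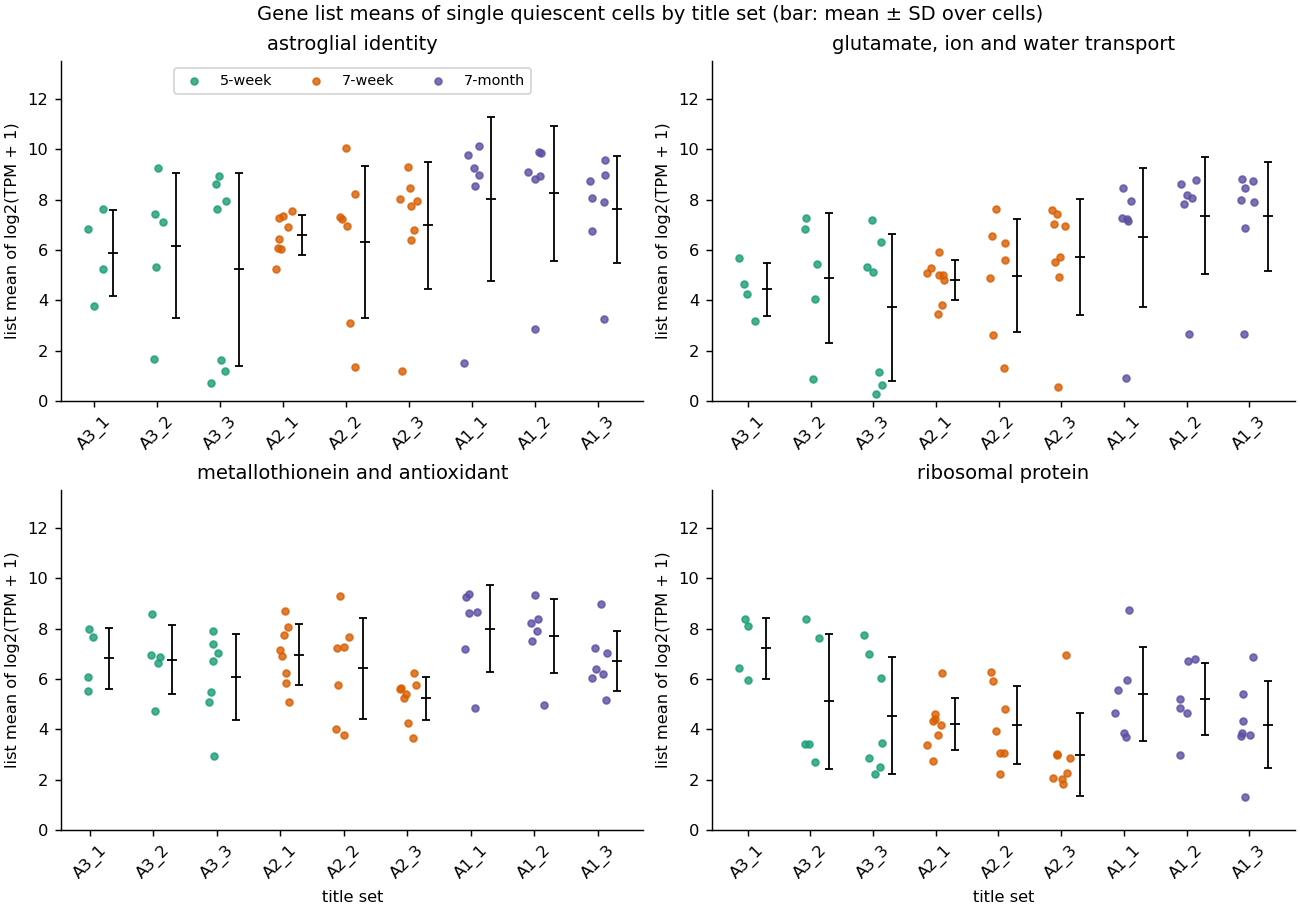
Mean log2(TPM + 1) of 4 gene lists in each quiescent cell (points), by title set and coloured by age, with bars for the mean ± SD over the cells of a set. The set means of the astroglial list and of the glutamate, ion and water transport list are highest in the 3 sets of 7-month cells, and low cells appear in sets of every age.

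Cells labelled quiescent were compared with those labelled active for how alike the cells of 1 state are. How the stage was assigned is not given, so the label may itself have shaped this likeness. For each title set the median rho over pairs of its cells was taken over 3261 genes. In the quiescent cells it ran from 0.25 (set A3_3) through a median of 0.295 to 0.502 (set A1_3), and in the active cells from 0.30 through 0.334 to 0.396, so the quiescent sets spread on both sides of the active ones. The means were 0.330 ± 0.081 and 0.335 ± 0.028 (SD, 9 sets each), with the quiescent cells lower in 6 of 9 sets. The difference of -0.00548 was not past the threshold (exact permutation test over sets, two-sided, p = 0.862). Over genes detected in at least 50% of the cells of both stages together the quiescent sets were less alike, by -0.0997 (exact permutation p = 0.00963). Genes can pass this 50% filter mainly through the active cells, in which more genes were detected. No conclusion is therefore drawn from this value or from its difference to that over the 3261 genes. The sets may share mice, and the mean number of genes detected was 2367 in the quiescent and 2709.7 in the active sets (exact permutation p = 0.0721). With the number of genes detected regressed out, the difference in likeness over the 3261 genes was 0.0203 (exact permutation p = 0.432). This was not done for the genes in at least 50% of cells.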

How the data were processed

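Single cells were lysed and their cDNA amplified with the SMARTer Ultra Low Input kit, sheared and made into Illumina libraries, per the labels' protocols. The authors deposited 1 table of TPM per gene for all libraries, made with RSEM 1.2.15 on mm9, per the submitters' processing notes. The aligner, annotation and read depths are not given in the sources used here. TPM sums to a fixed total, so a few abundant transcripts lower all others.

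From the table, groups were taken from the stage and age labels. Levels were compared as log2(TPM + 1), detection as 1 TPM or more, and spread and correlations over genes detected in at least 25% of the 58 cells. A list mean is the mean log2(TPM + 1) over the listed genes that passed. Named genes are the 5 markers, the 20 of highest median TPM, the 12 of largest and 6 of smallest excess SD, the 8 of highest and 8 of lowest rho with the astroglial mean, the 10 closest pairs, the 6 leading genes at each end of 2 principal components, up to 5 members of each of 23 lists by level, Nr2e1 and gfp. Predicted gene models were left out except from abundance ranks. Other genes were named after their values were seen, and some genes that the rule names are not reported here. The cells and lists were chosen with earlier results of these data known. The tests between quiescent and active cells, of likeness and of the number of genes detected, permuted title set values exactly and were two-sided. Dixon's test was applied to 30 measures averaged per title set. The computations were tested on simulated data. Python 3.11.15, numpy 2.4.6, pandas 2.3.3, scipy 1.17.1 and matplotlib 3.10.9 were used. Promoters are from RefSeq (GRCm38.p6). Alternatives changed the detection limit, filters, centring, correlation, cells and sets used.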

Additional observations from a re-analysis of the deposited data

Results flagged for a closer look

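Among 30 measures averaged per title set, 5 had a set that stood apart from the other 8 by Dixon's test at the 95% level. About 1 group in 20 does so by chance, and several of the 30 measures share genes. In the 7-month set A1_3 the mitochondrially encoded share of TPM was 15.9% (next set 10.0%), and the mean log2(TPM + 1) of the mitochondrially encoded list was 11.85 (next set 10.41). In the 7-week set A2_3 Malat1 held 24.1% of TPM (next set 13.7%). In the 5-week set A3_3, which holds 3 of the 8 cells of low astroglial mean, the lipid handling list mean was 3.82 (next set 5.07) and the mean log2(TPM + 1) of Gja1 was 7.18 (next set 9.38). What lies behind these was not tested.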

How the results depend on the processing

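The median number of genes per quiescent cell was 1160 at a detection limit of 10 TPM and 4788.5 at any value above 0, and the genes in at least 90% of cells were 43 and 710. The 15 of 36 variable astroglial genes became 8 of 30 over genes in at least 50% of cells, 8 of 37 in cells with an astroglial mean of at least 3, 3 of 36 over detecting cells and 5 of 36 without the 16 cells high on other lists (chosen after seeing the data). Leaving out 1 title set gave 12 to 16 and leaving out 1 age 9 to 20. The rho of the astroglial and ribosomal means was -0.0961 in the astroglial cells, -0.457 to -0.307 without 1 set and -0.634 to -0.118 without 1 age. Cells with all 5 markers numbered 44 to 49 without 1 set and 29 to 42 without 1 age, but each omission also lowers the total of cells. The 42, without the 5-week cells, are all of the 7-week and 7-month cells. The first component held 11.01 to 13.7% without 1 set and 10.8 to 16.4% without 1 age. The difference in likeness was 0.000187 with detection above 0 (exact permutation p = 0.995), 0.00888 over genes in at least 10% of cells (p = 0.759), 0.0203 after genes detected were regressed out (p = 0.432), 0.0139 without the cells high on other lists (p = 0.638) and -0.0997 over genes in at least 50% of cells (p = 0.00963). These gene filters counted the cells of both stages together, so genes can pass them mainly through the active cells. The difference in likeness was -0.0184 to 0.00227 without 1 set and -0.0210 to 0.00634 without 1 age. Both stages carry the same title set numbers, which no label ties to an animal or day, and with the title set as a replicate block the difference was -0.00548 (exact permutation p = 0.840). The excess SD of Gjb6 was -0.35 when centred on title sets, and over detecting cells that of Sparcl1 was -0.0897, of Dhrs7 -0.33 and of S100a6 -0.96. Of the values per named gene under all alternatives, 498 for spread kept their side of the top 10%, 11 lost it and the 4 above changed sign, and 413 for correlation with the astroglial mean kept theirs and 35 lost it. Since depth is unknown, a transcript below 1 TPM cannot be told from one that was missed.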
